A study of Homo sapiens with 2 samples.

Results

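The host genes of primary microRNAs described here are 7 human genes whose transcripts carry microRNA hairpins: MIR17HG, MIR22HG, DLEU2 and MIRLET7BHG, which are noncoding, and VMP1, MCM7 and SMC4, which encode proteins. They were chosen by name, and a TARBP2 CLIP region was counted to a host when it overlapped the host's hg19 interval on the host's strand by at least 1 nt. By this rule 18 of the 23412 regions analysed here belonged to a host. The regions come from MDA-LM2 cells, a lung-metastatic derivative of a human breast cancer line, transiently transfected with a myc-tagged TARBP2 vector. Cells were UV cross-linked 48 hours later, and RNA bound to the tagged protein was recovered with an anti-myc antibody and sequenced (HITS-CLIP). The protein was therefore supplied by a vector on top of whatever the cells make themselves, and both replicates carried it. The 2 replicates form 1 group and were combined by the authors into 1 list of regions, so no control library was compared and no value below has a replicate error. Each region has a score of 1, so the depth behind it is unknown, and the level of the host RNAs was not measured here.

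A microRNA starts as a hairpin in a long primary transcript. The nuclease Drosha, with DGCR8, cuts the hairpin out in the nucleus, and Dicer then cuts off its loop in the cytoplasm, leaving a short duplex of which 1 strand, the mature microRNA, is loaded into an Argonaute protein. TARBP2 (TRBP) binds double-stranded RNA without strict sequence preference and works as a partner of Dicer at this second cut. Mature microRNAs find their targets mainly through the seed, bases 2 to 8 counted from the 5′ end, so microRNAs with 1 seed share many targets. Many hairpins lie in introns of protein-coding genes, and others lie in noncoding RNAs that have few other known roles.

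The 1 hairpin that a region reached was MIR106B, in MCM7. Its RefSeq sequence (GRCh38.p14) is printed with the 41 bases that lie inside the region in capitals, followed by the mature product of each arm with its seed in capitals, because the region's end separates the arms.
MIR106B hairpin: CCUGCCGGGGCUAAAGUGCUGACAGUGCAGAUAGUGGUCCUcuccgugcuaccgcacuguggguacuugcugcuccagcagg
hsa-miR-106b-5p: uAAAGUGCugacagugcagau
hsa-miR-106b-3p: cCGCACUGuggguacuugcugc

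Seeds are shared between MCM7 and MIR17HG and between DLEU2 and SMC4, so 1 product of each hairpin is set out by seed (RefSeq, GRCh38.p14, seed in capitals). MIR4763 is left out. The first 4 share the seed of miR-106b-5p's family, whose members come from MCM7 and MIR17HG. The next 2 share another seed across the same hosts, and the following 3 share a seed across DLEU2 and SMC4. The others have seeds found in 1 host each.
hsa-miR-106b-5p (MCM7): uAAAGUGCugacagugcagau
hsa-miR-93-5p (MCM7): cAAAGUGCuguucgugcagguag
hsa-miR-17-5p (MIR17HG): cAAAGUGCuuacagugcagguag
hsa-miR-20a-5p (MIR17HG): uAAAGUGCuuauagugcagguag
hsa-miR-25-3p (MCM7): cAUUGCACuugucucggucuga
hsa-miR-92a-3p (MIR17HG): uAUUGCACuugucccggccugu
hsa-miR-15a-5p (DLEU2): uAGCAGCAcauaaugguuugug
hsa-miR-16-5p (DLEU2 and SMC4): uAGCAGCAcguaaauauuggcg
hsa-miR-15b-5p (SMC4): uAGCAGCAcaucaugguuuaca
hsa-miR-18a-5p (MIR17HG): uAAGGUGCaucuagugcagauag
hsa-miR-19a-3p (MIR17HG): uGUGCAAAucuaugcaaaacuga
hsa-miR-19b-3p (MIR17HG): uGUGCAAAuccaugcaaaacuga
hsa-miR-21-5p (VMP1): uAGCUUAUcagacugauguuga
hsa-miR-22-3p (MIR22HG): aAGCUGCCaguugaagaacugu
hsa-let-7a-5p (MIRLET7BHG): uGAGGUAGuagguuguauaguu
hsa-let-7b-5p (MIRLET7BHG): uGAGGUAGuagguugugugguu

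Regions were found in 4 of the 7 hosts. DLEU2 held 9, VMP1 held 6, SMC4 held 2 and MCM7 held 1, while MIR17HG, MIR22HG and MIRLET7BHG held 0. The noncoding hosts thus held 9 regions, all of them in DLEU2, and the coding hosts held the other 9. The host intervals differ widely in length, from 4.71 kb for MIR22HG to 143.0 kb for DLEU2. Set against length, the order changed: MCM7 had 10.9 regions per 100 kb, DLEU2 6.29, SMC4 5.60 and VMP1 4.48. The value for MCM7 rests on 1 region in 9.21 kb. The same strand of the host's own chromosome, from its first to its last listed region, held 0.617 regions per 100 kb for MCM7, 0.292 for DLEU2, 0.305 for SMC4 and 0.476 for VMP1. That background includes long stretches without genes, so it describes the list and is no measure of preference for these hosts. Over all 7 hosts there were 4.98 regions per 100 kb, against 0.399 per 100 kb of chromosome strand over the whole list without the mitochondrial genome. The regions covered 6080 nt of the hosts in all, from 1.36% of SMC4 to 2.66% of MCM7 among hosts with a region.

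**Figure D1:**
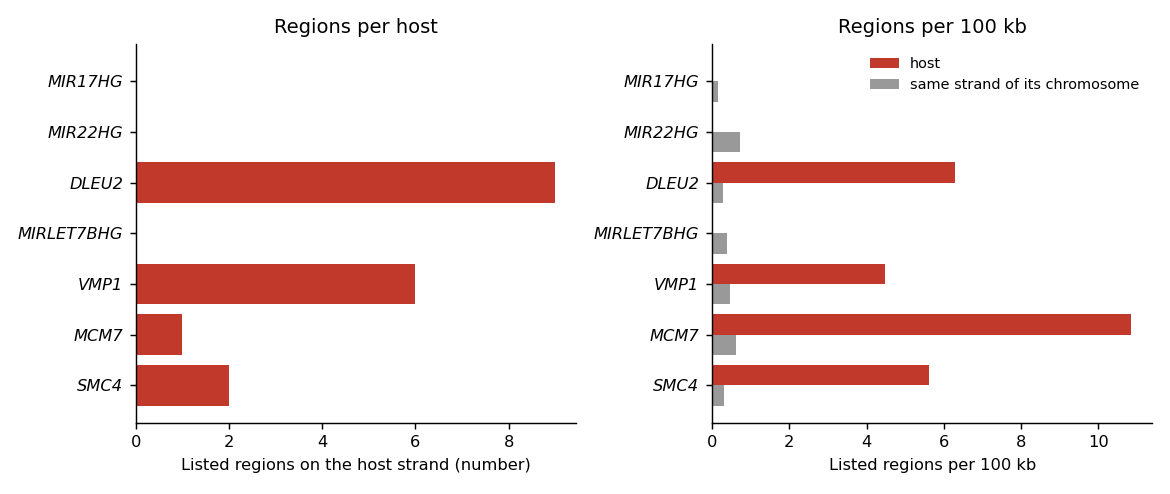
Listed TARBP2 CLIP regions on the strand of each host (left, number) and per 100 kb (right), with the host in red and the same strand of its chromosome, from the first to the last listed region, in grey. DLEU2 (9) and VMP1 (6) have the most regions, MCM7 has the most per 100 kb (10.9, from 1 region), and 3 hosts have 0.

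The 18 regions reached 1 of the 18 annotated hairpins of these hosts. Of these hairpins, 8 were in hosts with a region. Regions covered 16.8 nt per kb of host over all hosts. This is a share of bases, while a hairpin counted as reached at an overlap of 1 nt or more, so the measures are unlike. The count of hairpins was not tested against this share. Since the deposited coordinates are on hg19 and the annotation used here is on GRCh38, hairpins and exons were placed by their distance along the host. For 6 hosts this used a gene or transcript model of exactly the host's length, and for VMP1 it used the end of its interval, taken as the last base of MIR21. No coordinate was carried from one build to the other, and equal length does not show that every base between the ends is the same. For the 10 hairpins in the 3 hosts without a region this placement made no difference.

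MCM7 encodes a subunit of the MCM2-7 helicase that unwinds DNA at replication forks, and intron 13 of its 15-exon transcript ENST00000303887.9 carries MIR106B, MIR93 and MIR25, known as the miR-106b-25 cluster. Its only region lay on chromosome 7 from 99691657 to 99691901 on the minus strand and was 245 nt long. Read in the direction of transcription, the region began in exon 13, covered the last 106 nt of that exon, ran through the first 98 nt of the intron and ended 41 nt into the 82 nt MIR106B hairpin. The same exon lay under the region in 7 of the 13 annotated MCM7 transcripts, and the intron after it was 771 nt long. The region thus crossed the border between exon and intron.

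The covered 41 bases of MIR106B were its 5′ side. All 21 bases of miR-106b-5p, at positions 12 to 32 of the hairpin, lay inside the region, and 0 of the 22 bases of miR-106b-3p, at positions 52 to 73, did. In a minimum free energy structure computed with RNAfold, the last paired base of the 5′ arm was at position 37 and the first of the 3′ arm at position 44. The region therefore ended in the 6 nt loop. Of its 41 hairpin bases, 31 were paired in that structure. Because the region ended in the loop, all 31 had their partner in the 3′ side, outside the region, which is no separate result. The computed energy of MIR106B was -44.4 kcal/mol. The other 15 hairpins with a sequence in the RefSeq table had energies from -62.8 kcal/mol (MIR4763) to -21.1 kcal/mol (MIR18A). Only MIR4763 and MIRLET7B (-46.7 kcal/mol) were lower than MIR106B, and both lie in MIRLET7BHG, which held no region. Whether energy is related to being reached was not tested. MIR93 and MIR25, the next hairpins of the same intron, were not reached: they began 186 nt and 390 nt past the end of the region. The nearest other regions on this strand lay 12.6 kb upstream and 12.3 kb downstream of MCM7.

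**Figure D2:**
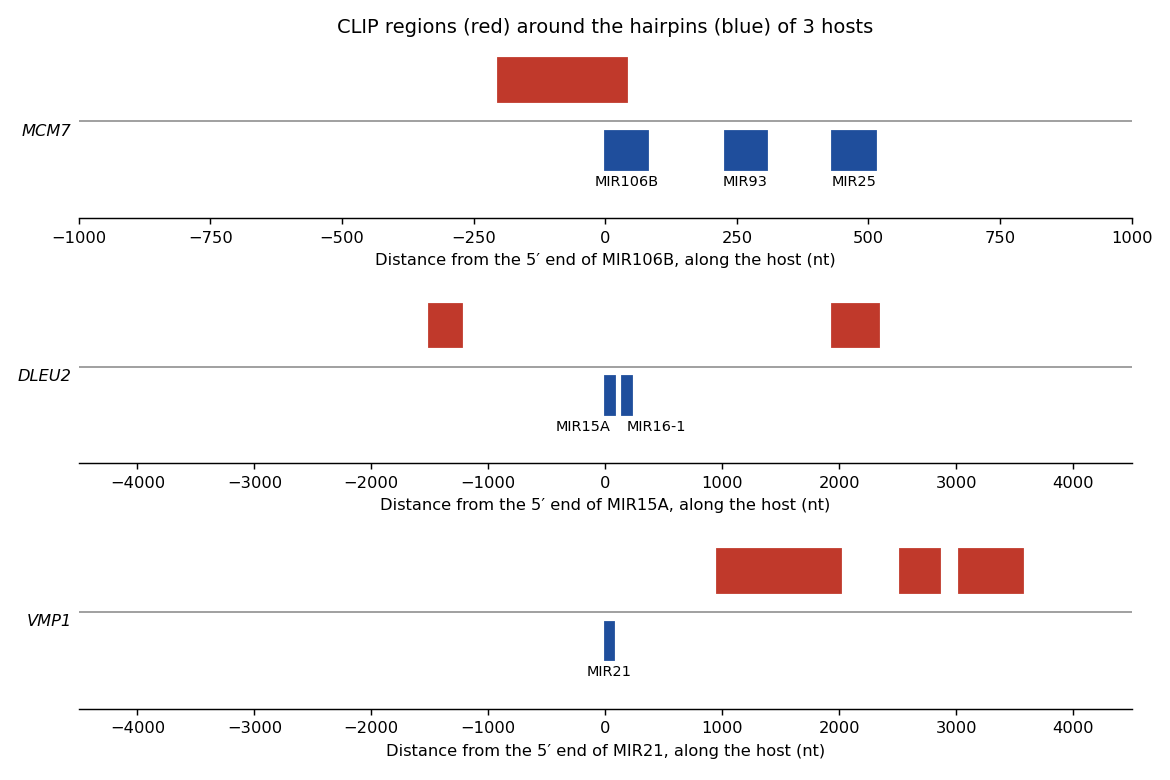
CLIP regions (red) and hairpins (blue) by distance in nt along the host, 5′ to 3′, from the 5′ end of MIR106B in MCM7, MIR15A in DLEU2 and MIR21 in VMP1 (the top row spans a shorter distance). The MCM7 region overlaps the first 41 nt of MIR106B, while MIR15A and MIR16-1 lie between a pair of regions and MIR21 lies 883 nt before one.

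DLEU2 is a long noncoding RNA of the 13q14 segment that is often deleted in chronic lymphocytic leukaemia, and it carries MIR15A and MIR16-1, whose products repress BCL2 and cell-cycle genes. It held 9 regions on the minus strand of chromosome 13, more than any other host. In the direction of transcription the first lay 6.66 kb from the start of the gene, from 50692666 to 50693017 (352 nt). The next 4 lay upstream of the hairpins, from 50639420 to 50639802 (383 nt), 50631903 to 50632392 (490 nt), 50628325 to 50628573 (the most common length of the list) and 50624566 to 50624846 (281 nt). These 4 were thus spread over the 15.2 kb that separate 59.9 kb from 75.1 kb along the gene.

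The remaining 4 regions of DLEU2 lay downstream of the hairpins. They ran from 50620998 to 50621401 (404 nt), 50608568 to 50608815 (248 nt), 50606974 to 50607369 (396 nt) and 50565863 to 50566209 (347 nt). Apart from the first and the last, the regions thus lay between 59.9 kb and 92.7 kb along a gene of 143.0 kb. None of the 9 overlapped an exon of an annotated DLEU2 transcript, and the nearest exon was 766 nt to 8103 nt away. By annotation most of the gene is intron, so this is no measure of preference for introns.

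MIR15A and MIR16-1 lie next to each other, 76.3 kb and 76.5 kb from the start of DLEU2, and no region overlapped them. The closest upstream region ended 1228 nt before MIR15A, and the closest downstream region began 1707 nt after MIR16-1. The gap between these regions, 3164 nt, was among the shorter gaps of the gene, which ranged from 1198 nt to 52863 nt. The hairpins therefore lay between regions, inside the stretch that held 7 of the 9 regions of DLEU2. That stretch was drawn from the region positions themselves, so this is no measure of closeness to the hairpins.

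SMC4 encodes a core subunit of condensin, the complex that compacts chromosomes for mitosis, and it carries MIR15B and MIR16-2, which share their seed with the DLEU2 microRNAs. Its 2 regions lay on chromosome 3 (plus strand) from 160138742 to 160138980 (239 nt) and from 160139452 to 160139699 (248 nt). They were 471 nt apart, both in intron 13 of the 24-exon transcript ENST00000357388.7. The first began close to an exon, 52 nt away, and the second lay 762 nt from it. MIR15B and MIR16-2 sit near the start of the gene, 5.31 kb and 5.47 kb along it, and the nearest region began 16.3 kb and 16.1 kb downstream of them. Upstream, the nearest region of the strand was 382 kb before SMC4. The paired loci with 1 seed thus differed in layout: regions lay on both sides of the hairpins within 2 kb in DLEU2, and at more than 16 kb on 1 side in SMC4. No test was made of this difference.

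VMP1 encodes a membrane protein of the endoplasmic reticulum needed for autophagy, and MIR21, a microRNA raised in many cancers, lies at its 3′ end, where transcripts from VMP1 or from a promoter inside it run on. Within the interval 6 regions lay on the plus strand of chromosome 17. The first lay in intron 1 of the 12-exon transcript ENST00000262291.8, from 57795187 to 57795423 (237 nt). In intron 7 there were 3 short ones, from 57860520 to 57860743 (224 nt), 57867386 to 57867596 (211 nt) and 57872085 to 57872223 (139 nt). Intron 10 held the last 2, from 57900584 to 57901591 (1008 nt) and from 57901849 to 57902227 (379 nt), separated by 257 nt. The nearest annotated VMP1 exon was at least 5449 nt from each of the 6. As in DLEU2, most of this gene is intron by annotation.

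No region overlapped the MIR21 hairpin. The last region inside VMP1 ended 16.4 kb before it, and the next began 883 nt after it, just outside the interval of the rule. This downstream region, from 57919582 to 57920642, was 1061 nt long and overlapped the end of the GENCODE 29 VMP1 gene by 35 nt. It was followed by regions from 57921149 to 57921485 (337 nt) and from 57921649 to 57922198 (550 nt). The annotation listed no gene on either strand at the distances of the last 2. The plus strand past MIR21 thus held 3 regions within 5 kb. The 16.4 kb before the hairpin is by definition the distance to the nearest region, so its lack of regions is no separate result. Gaps between the regions inside VMP1 ranged from 257 nt to 65096 nt. In the other hosts, the 5 kb on either side held 1 region, downstream of DLEU2 from 50555081 to 50555400 (320 nt).

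**Figure D3:**
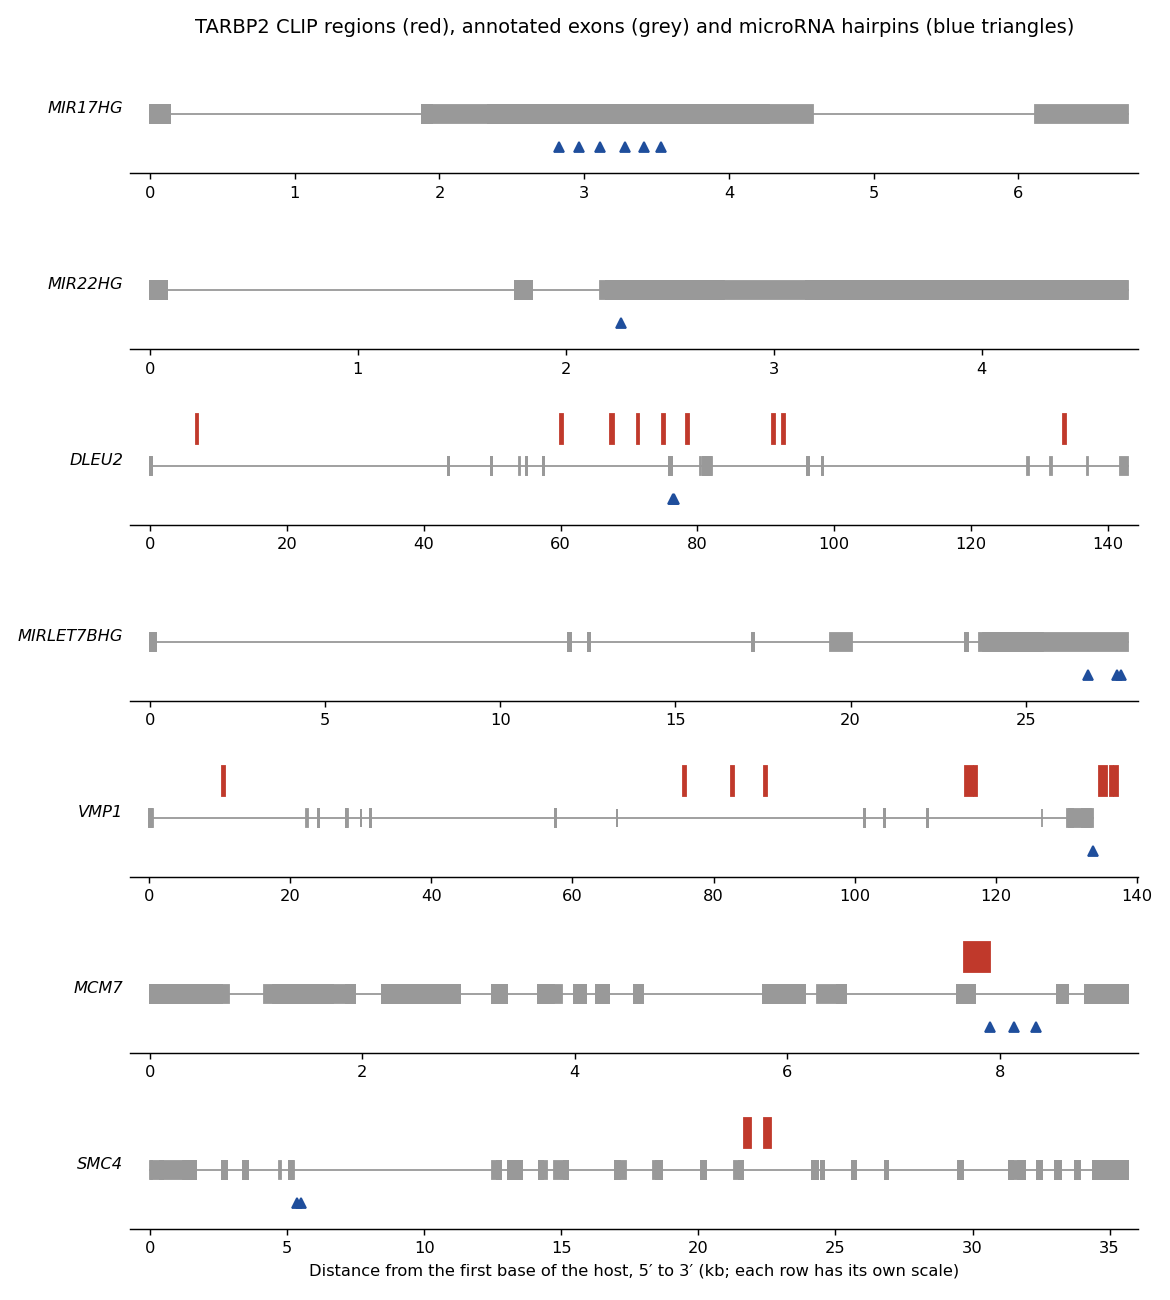
Each row is 1 host, drawn 5′ to 3′ by distance from its first base in kb on its own scale, with annotated exons in grey, CLIP regions of the host strand in red and hairpins as blue triangles; VMP1 is drawn 5 kb past its end. Regions narrower than 0.3% of a host are drawn at that width, and only in MCM7 does one overlap a hairpin.

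MIR17HG, MIR22HG and MIRLET7BHG held 0 regions on either strand. MIR17HG is the host of the miR-17-92 cluster, which promotes proliferation as a target of MYC and carries MIR17, MIR18A, MIR19A, MIR20A, MIR19B1 and MIR92A1. Its nearest regions on the plus strand of chromosome 13 lay 9077 kb upstream and 1309 kb downstream. MIRLET7BHG, the host of MIRLET7A3, MIR4763 and MIRLET7B, of which the let-7 microRNAs repress growth genes such as RAS and HMGA2, had its nearest regions 778 kb upstream and 188 kb downstream. MIR22HG, the host of MIR22, lay in a stretch with more regions: the nearest were 6.03 kb upstream and 6.26 kb downstream on the minus strand of chromosome 17. Whether these hosts were transcribed in MDA-LM2 cells was not tested. The intervals of the hosts without regions were 6.76 kb (MIR17HG), 4.71 kb (MIR22HG) and 27.9 kb (MIRLET7BHG) long, 39.4 kb together. In GENCODE 29 the genes MIRLET7BHG (60060 nt) and MIR22HG (5682 nt) are longer than these intervals, and MIR17HG has the same length. Among the hosts with regions, MCM7 was 9.21 kb long with 1 region and SMC4 35.7 kb with 2.

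The reached hairpin, MIR106B, lay in an intron, and no hairpin that overlapped an annotated exon of its host was reached. Among the hairpins that overlapped an exon, only MIR21 and MIR15A were in hosts with a region. The others were in MIR17HG, MIR22HG and MIRLET7BHG, which held no region, so no preference for intronic hairpins can be read from this. The MIR17HG hairpins lay in an exon of 2 of 3 transcripts that span them, MIR22 in an exon of 19 of 19, MIR21 in an exon of 1 of 1, and the MIRLET7BHG hairpins in an exon of the 1 transcript that spans them. The MCM7 and SMC4 hairpins lay in introns of all transcripts that span them. MIR15A overlapped an exon in 2 of 8 transcripts and MIR16-1 in 0 of 6.

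Region names hold numbers that rise along each strand of a chromosome, and the regions analysed here carry 15.0% of the numbers up to the highest. From the first to the last region of DLEU2 the names ran over 30 numbers, of which 21 were not listed. In VMP1 they ran over 19, of which 13 were not listed, and in SMC4 over 2, of which 0 were not listed. MCM7 had only the 1 number of its region. Such spans begin and end on a listed region, which raises the listed share, so they cannot be set against the 15.0%. At the hosts without a region the numbers can be counted only between the nearest listed regions, over stretches far longer than the host. These had 114 unlisted numbers in 10393 kb around MIR17HG, 31 in 994 kb around MIRLET7BHG and 2 in 17.0 kb around MIR22HG, and how many of them fell in the host is not known. The gap that holds MIR15A and MIR16-1 had room for 1 number, and so did the gap that holds MIR21. What these numbers stood for is not known from the sources used here, so they give no count of binding.

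The regions of the hosts were of ordinary length for the list. Their median was 265 nt, with quartiles of 240.5 and 382 nt, against 253 nt and quartiles of 248 and 374 nt over all 23412 regions. The most common length of the list, held by 19.7% of it, occurred once, in DLEU2. In DLEU2 the shortest region had 248 nt and the longest 490 nt, around a median of 352 nt. VMP1 regions varied the most, between 139 and 1008 nt around a median of 230.5 nt. The region of 139 nt was shorter than 99.0% of the list, and that of 1008 nt was exceeded by 2.18%. The 245 nt of the MCM7 region and the 239 and 248 nt of the SMC4 regions were near the most common lengths.

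**Figure D4:**
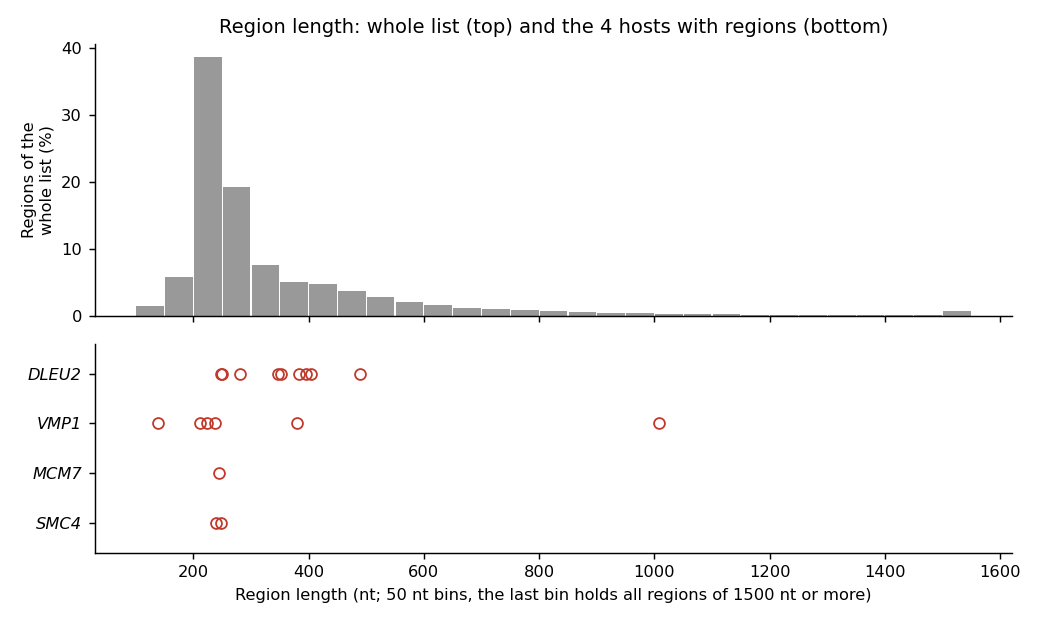
Length in nt of all regions in 50 nt bins (top, percent of the whole list) and of each host region (bottom, 1 circle per region). The SMC4 and MCM7 regions lie in the tallest bin, DLEU2 regions run from 248 to 490 nt, and 1 VMP1 region stands apart at 1008 nt.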

How the data were processed

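Both samples are MDA-LM2 cells with a myc-tagged TARBP2 vector, grouped by their titles. Nothing says whether they came from separate cultures. The submitters' processing notes name Bowtie and hg19. How regions were called and filtered, and how multiply aligned reads were handled, is not given in these sources. These steps decide which regions exist and where they end, the end inside MIR106B included. The deposited score is 1 for every region. Starts are printed 1-based.

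Host intervals (hg19) came with the rule that names the hosts. The members, lists and comparisons were chosen with earlier results of these data known. All 7 hosts and 18 hairpins are named. Exons and hairpins came from GENCODE 29 and RefSeq GRCh38.p14 tables, placed by distance along a host of equal length. All 18 hairpins had a mature sequence in RefSeq, and 16 a hairpin sequence. The planned list of other microRNA hosts was not analysed here, since hg19 gene intervals were not used for it. No statistical test was made. The alternatives changed overlap, host limits, strand, joining, lengths and hairpin distance. Overlap and distance calculations were tested on 500 simulated sets. Python 3.11.15, numpy 2.4.6, matplotlib 3.10.9 and RNAfold 2.7.2 were used.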

Additional observations from a re-analysis of the deposited data

How the results depend on the processing

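The total of 18 regions in hosts was 16 to 19 with the overlap, host limits, joining or length alternatives, and 1 when the opposite strand was counted. The density of 4.98 regions per 100 kb was 5.07 with widened host limits, and as bases covered it was 16.8 nt per kb, a different quantity. The 1 hairpin reached became 2 when a region within 250 nt was enough, by adding MIR93. It was 0 when the whole hairpin had to lie inside a region, and 0 on the opposite strand. The 1 region with exon overlap became 0 when at least 50% had to be exonic, since 43.3% of the MCM7 region was. The 2 SMC4 regions count as 1 when regions within 500 nt are joined. The median length was 281 nt without regions of the list's most common length. No paired analysis was possible because the list has 1 group and no replicate column, so leaving out a replicate was not possible either. Depth is unknown, so a host or hairpin with 0 regions cannot be called unbound.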

Other observations

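The opposite strand of the hosts held 1 region in all, on chromosome 13 (plus strand) from 50581831 to 50582055 (225 nt), inside the DLEU2 interval and 118 kb from its start. At this distance the annotation lists TRIM13, a ubiquitin ligase gene that lies antisense to DLEU2. No hairpin of the 7 hosts was overlapped by a region on the opposite strand.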
